A study of Mus musculus with 2 samples.

Results

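Chemokines are small secreted proteins that draw leukocytes along a gradient, and stromal fibroblasts of fat are among the cells that make them. They are grouped by the spacing of their first cysteines into CC, CXC, CX3C and XC ligands, and they act on G protein-coupled receptors that sit mostly on leukocytes. Atypical receptors bind chemokines and take them up without signalling through G proteins. Chemokine genes and chemokine receptor genes were compared between cultured adipose-derived stromal cells of Wisp1 knockout and wild-type mice. A gene was counted as a member when its platform symbol was Ccl, Cxcl, Ccr, Cxcr or Ackr with a number, or Cx3cl1, Cx3cr1, Xcl1 or Xcr1, and when its row carried no other symbol. This gave 54 of 30145 named genes, of which 35 encode ligands and 19 encode receptors.

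The Wisp1 KO cells came from mice with a global deletion of Wisp1 (Ccn4), made by placing loxP sites around exons 1 to 5 and mating with a mouse that the labels call Cre-neo. The WT cells carried the intact gene. Both kinds of mice were on the C57BL/6J background, were 6 to 10 weeks old and gave cells from inguinal fat, which were grown in DMEM with 15% fetal bovine serum. Wisp1 encodes a matricellular protein of the CCN family, and the series asks about its effect on cartilage differentiation in heterotopic ossification, in which bone forms outside the skeleton. How many animals gave the cells is not stated in the sources used here.

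Only 1 expression array was run per genotype, which leaves no replicate error to judge a difference by and allows no test. All levels are log2 values as deposited, and every difference is the Wisp1 KO value minus the WT value, which compares these 2 arrays rather than the genotypes. A level is comparable between the arrays for the same gene, not between genes. Genes with a mean over both arrays of 4.65 or more, the median of named genes, are called measured at or above the median level, and those below it are called dim. Wisp1 itself had a value of 5.40 in the Wisp1 KO array and 7.79 in the WT array, a difference of -2.39. Its Wisp1 KO value still lay above 4.65, so passing that level does not by itself show expression of an intact gene. Of 12 stromal markers 10 were matched, and 9 of them were at or above the median level, among them Col1a1 with 11.90 in Wisp1 KO and 11.40 in WT and Pdgfrb with 10.49 in Wisp1 KO and 10.38 in WT. In RNA of a whole culture, fewer cells of a type and less RNA per cell cannot be told apart.

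Promoter sequences are given here for 5 ligand genes, chosen to show genes with a large difference, as far as the promoter table holds them, and a group of near neighbours. RefSeq (GRCm38.p6) gave a promoter of 300 bases, from 250 before to 50 after the start, for 40 of the 54 members and 11 of the 18 that reached the median level defined above. Ccl11 and Ccl5, described below, were not among those 40, so their promoters were neither shown nor searched for motifs. Ccl8 had the largest difference of all members, and Cxcl14 the largest among the CXC ligands. Cxcl1, Cxcl2 and Cxcl3 are ligands of the neutrophil receptor Cxcr2 and lie close to each other. For those last genes only the 100 bases from position -110 to -11 are shown. Capitals mark a match to one of 4 motifs, searched on both strands: those named for NF-kappaB, STAT6 and the interferon response, and the AP-1 motif TGAGTCA. Matches of different motifs did not overlap in the promoters shown.
Ccl8, plus strand, chr11:82114935-82115234: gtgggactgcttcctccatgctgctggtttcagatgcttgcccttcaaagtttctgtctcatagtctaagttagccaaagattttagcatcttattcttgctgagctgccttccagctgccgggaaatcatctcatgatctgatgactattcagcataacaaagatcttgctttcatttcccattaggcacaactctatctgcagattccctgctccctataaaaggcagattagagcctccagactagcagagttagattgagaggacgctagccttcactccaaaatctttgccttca
Cxcl14, minus strand, chr13:56296502-56296801: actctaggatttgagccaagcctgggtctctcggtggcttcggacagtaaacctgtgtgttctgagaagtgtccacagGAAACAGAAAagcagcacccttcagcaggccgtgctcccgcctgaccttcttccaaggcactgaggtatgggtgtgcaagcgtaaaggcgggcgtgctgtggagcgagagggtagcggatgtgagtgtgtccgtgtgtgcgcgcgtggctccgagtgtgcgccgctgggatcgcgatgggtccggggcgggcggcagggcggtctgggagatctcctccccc
Cxcl1, plus strand, chr5:90891135-90891234: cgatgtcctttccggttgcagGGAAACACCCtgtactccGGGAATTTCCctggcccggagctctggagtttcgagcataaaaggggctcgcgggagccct
Cxcl2, plus strand, chr5:90903789-90903888: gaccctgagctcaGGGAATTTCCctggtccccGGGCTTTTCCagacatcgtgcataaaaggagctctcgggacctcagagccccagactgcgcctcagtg
Cxcl3, plus strand, chr5:90785991-90786090: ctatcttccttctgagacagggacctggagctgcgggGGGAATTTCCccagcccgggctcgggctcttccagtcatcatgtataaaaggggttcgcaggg

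The NF-kappaB motif was found in 6 of 44 member promoters (13.6%), where some members have more than 1 promoter, and in 535 of all 32851 promoters (1.63%). It was in 5 of 27 ligand promoters, namely those of Cxcl1, Cxcl2, Cxcl3, Ccl9 and Ccl20, and in 1 of 17 receptor promoters, that of Ccr3. The letters GGGAATTTCC stood in the promoters of Cxcl1, Cxcl2 and Cxcl3 alike, on the strand of the gene. The AP-1 motif was in 13.6% of member promoters and 5.20% of all promoters. The interferon response motif was in 3 member promoters (6.82%, against 3.44% of all) and the STAT6 motif in 1, that of Ccl17 (2.27%, against 6.95%). The Ccl8 promoter held none of the 4 motifs in this window, and that of Ccl11 was not searched. A match describes letters and not a bound site, and members whose promoters share a cluster of copies are not independent.

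Among the members, 2 ligand genes of the monocyte chemoattractant and eotaxin group stood out on these arrays. Ccl8 (transcript cluster TC1100001223.mm.1), which in mouse acts on the receptor Ccr8 of T helper 2 cells, had a value of 7.85 in the Wisp1 KO array and 6.94 in the WT array. Its level was thus 0.91 higher in Wisp1 KO, a 1.88-fold difference. Ccl11 (TC1100001221.mm.1), the eotaxin that draws eosinophils through Ccr3, had a value of 8.93 in Wisp1 KO and 8.02 in WT, a difference of 0.91 or 1.87-fold. Both were higher in the Wisp1 KO array by nearly the same amount, and among the 15073 named genes that are not dim only 15 had a larger positive difference than Ccl8 and 17 a larger one than Ccl11.

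**Figure D1:**
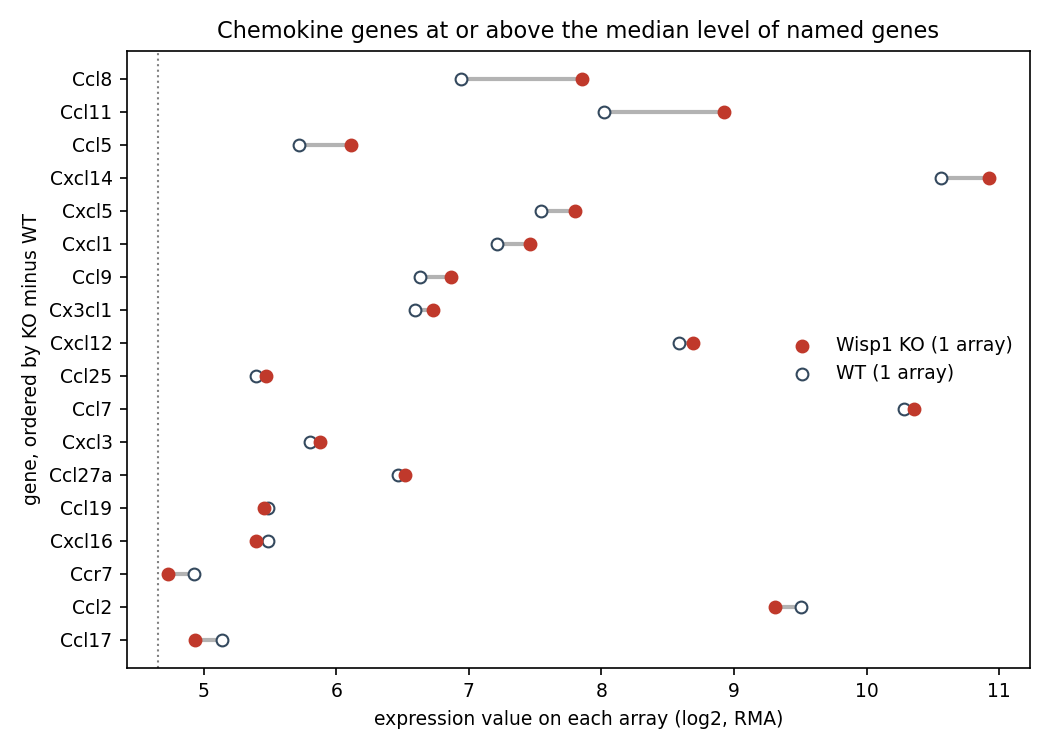
Values (log2, horizontal axis) of the 18 members at or above the median level, with 1 filled point for the Wisp1 KO array and 1 open point for the WT array, ordered from the highest to the lowest difference. The dotted line marks 4.65. Ccl8 and Ccl11 have the widest gaps, 0.91 each, and 5 genes at the bottom have the Wisp1 KO point on the left.

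At a fold of 1.5, these were the only members called. In all, 2 of 54 members were at least 1.5-fold higher in Wisp1 KO, where 0.401% of all named genes were, and 0 of 54 were at least 1.5-fold lower, where 0.352% of all named genes were. Among the 18 members that are not dim, 2 were at least 1.5-fold higher (0.717% of such named genes) and 0 lower (0.464%). No member reached 2-fold in either direction. Of all named genes 0.0332% were at least 2-fold higher and 0.0564% lower, and among genes that are not dim these shares were 0.0663% and 0.0995%. At a smaller size, a difference of 0.32 on the log2 scale, Ccl5 and Cxcl14 joined Ccl8 and Ccl11, so that 4 of 54 members were higher (2.72% of all named genes) and 1, the dim receptor gene Ccr10, was lower (3.06%). Among the 18 members that are not dim, 4 were higher by this size (3.89% of such named genes) and 0 lower (2.64%). After loess centring Cxcl14 no longer reached this size, which left 3.

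The median difference over all 54 members was -0.01, and over all named genes it was 0. The sign of the members' median turned under loess centring, with several-symbol rows kept and when a mean was taken instead. For the 18 members at or above the median level the median was 0.09, with 13 higher and 5 lower. All such named genes had a median of 0.03, and 56.9% of them were higher. The split of calls over all genes at that level depended on scaling: 108 were at least 1.5-fold higher and 70 lower as deposited, 87 and 89 after quantile normalization, and 92 and 86 after loess centring.

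**Figure D2:**
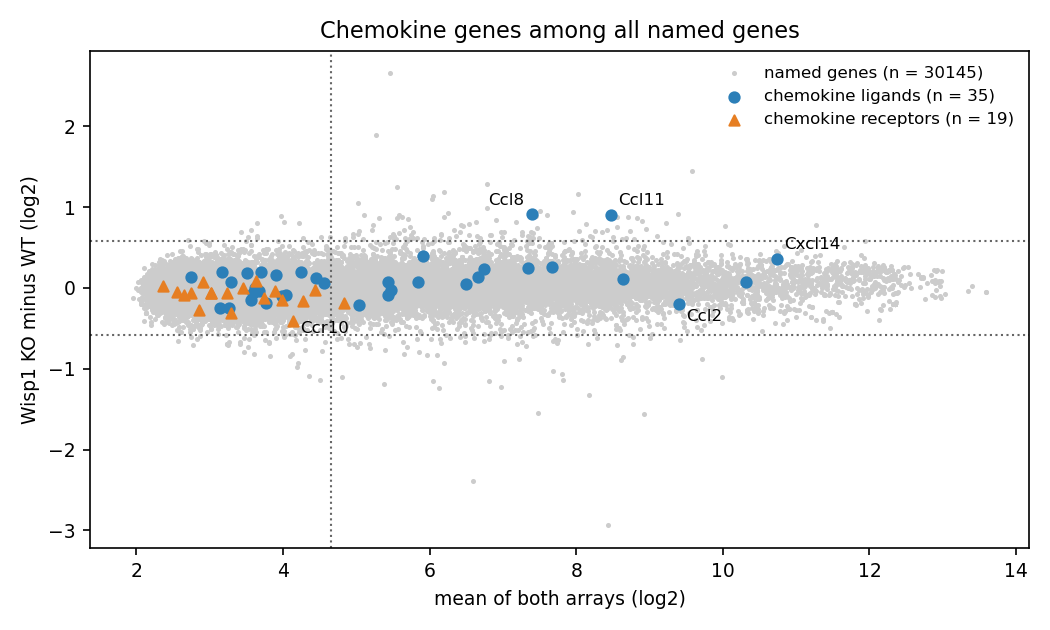
Difference (Wisp1 KO minus WT, log2, vertical axis) against the mean of both arrays (log2, horizontal axis) for 30145 named genes (grey), 35 ligand genes (circles) and 19 receptor genes (triangles). Dotted lines mark 1.5-fold and a mean of 4.65. Ccl8 and Ccl11 lie above the upper line at 0.91, and the receptor genes gather at the dim end.

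The CC ligands comprised 20 genes, 13 of which were higher and 7 lower in Wisp1 KO, with a median of 0.10. This median was 0.10 also under quantile normalization and loess centring. As deposited, 47.0% of all named genes were higher and 47.4% lower. Besides Ccl8 and Ccl11, the largest difference was in Ccl5 (RANTES), a chemokine that attracts T cells and monocytes, with a value of 6.11 in Wisp1 KO and 5.72 in WT, a difference of 0.39. Ccl9, a Ccr1 ligand, had a value of 6.86 in Wisp1 KO and 6.63 in WT (0.23). The monocyte chemoattractant gene Ccl2, whose protein acts on Ccr2, went the other way, with a value of 9.31 in Wisp1 KO and 9.50 in WT (-0.19). Its relative Ccl7 had a value of 10.36 in Wisp1 KO and 10.28 in WT, a difference of 0.07. Ligands of the same receptor Ccr2 therefore differed in direction on these arrays, and neither difference reached 0.32 in size.

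The other CC ligands that were not dim differed by 0.21 or less in size. Ccl25, a ligand of the thymus and gut receptor Ccr9, had a value of 5.47 in Wisp1 KO and 5.39 in WT. Ccl27a, a skin chemokine that binds Ccr10, had a value of 6.52 in Wisp1 KO and 6.47 in WT, and Ccl17, a Ccr4 ligand, 4.93 in Wisp1 KO and 5.14 in WT (-0.21), the lowest difference among the CC ligands. Ccl19, which binds the lymph node homing receptor Ccr7, had a value of 5.46 in Wisp1 KO and 5.48 in WT. The remaining 10 CC ligand genes were dim, with differences between -0.19 (Ccl28) and 0.20 (Ccl3), and Ccl20, the ligand of Ccr6, at 0.19. Ccl12, another Ccr2 ligand, was among them, with a value of 2.81 in Wisp1 KO and 2.68 in WT.

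Ccl19, Ccl21 and Ccl27 genes exist in mouse as near-identical copies, so their rows cannot be taken as separate measurements. No row carried a Ccl21 symbol alone. The 9 rows that name a Ccl21 copy together with other symbols were all dim and all higher in Wisp1 KO, by 0.14 to 0.44, and held only 5 distinct pairs of values. The 5 further rows that name Ccl19 were all lower in Wisp1 KO, by between -0.29 and -0.06. The 5 further rows that name a Ccl27 copy were all higher, by 0.04 to 0.23. Ccl21 and Ccl19 proteins share the receptor Ccr7, and the Ccl21 rows were higher and the Ccl19 rows lower.

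Among the 13 CXC ligand genes 8 were higher, 4 lower and 1 the same, with a median of 0.07. Of all named genes 47.0% were higher and 47.4% lower. Cxcl14, a chemokine of epithelium and stroma whose main receptor is not settled, had a value of 10.92 in Wisp1 KO and 10.56 in WT, a difference of 0.36 or 1.28-fold. Cxcl5, which attracts neutrophils through Cxcr2, had a value of 7.80 in Wisp1 KO and 7.54 in WT (0.26). Cxcl1, the keratinocyte-derived chemokine with the same receptor, had a value of 7.46 in Wisp1 KO and 7.21 in WT (0.24). Cxcl3 had a value of 5.87 in Wisp1 KO and 5.80 in WT (0.07), and Cxcl2 was dim with the same difference of 0.07. All 4 of these Cxcr2 ligand genes were higher in Wisp1 KO, each by less than 0.32. As deposited, 56.9% of named genes that are not dim were higher. Cxcl15, a chemokine of the lung that also attracts neutrophils, was dim and lower (-0.25).

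Cxcl12, the ligand of Cxcr4 that retains stem cells and leukocytes in stromal niches, had a value of 8.69 in Wisp1 KO and 8.59 in WT (0.11). Cxcl16, a membrane-bound ligand of Cxcr6, had a value of 5.39 in Wisp1 KO and 5.48 in WT (-0.09). The interferon-induced ligands of Cxcr3 were dim. Cxcl9 had a value of 3.98 in Wisp1 KO and 3.82 in WT, Cxcl10 had the same value of 3.61 on both arrays, and Cxcl11, which RefSeq lists as a transcribed pseudogene in this strain, had 3.65 in Wisp1 KO and 3.69 in WT. The B cell chemokine gene Cxcl13 was dim and lower in Wisp1 KO (-0.25). Of the genes outside the CC and CXC groups, Cx3cl1 (fractalkine), which is anchored in the membrane and binds Cx3cr1, had a value of 6.73 in Wisp1 KO and 6.59 in WT (0.14). Xcl1 (lymphotactin) was dim, with a difference of -0.09.

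**Figure D3:**
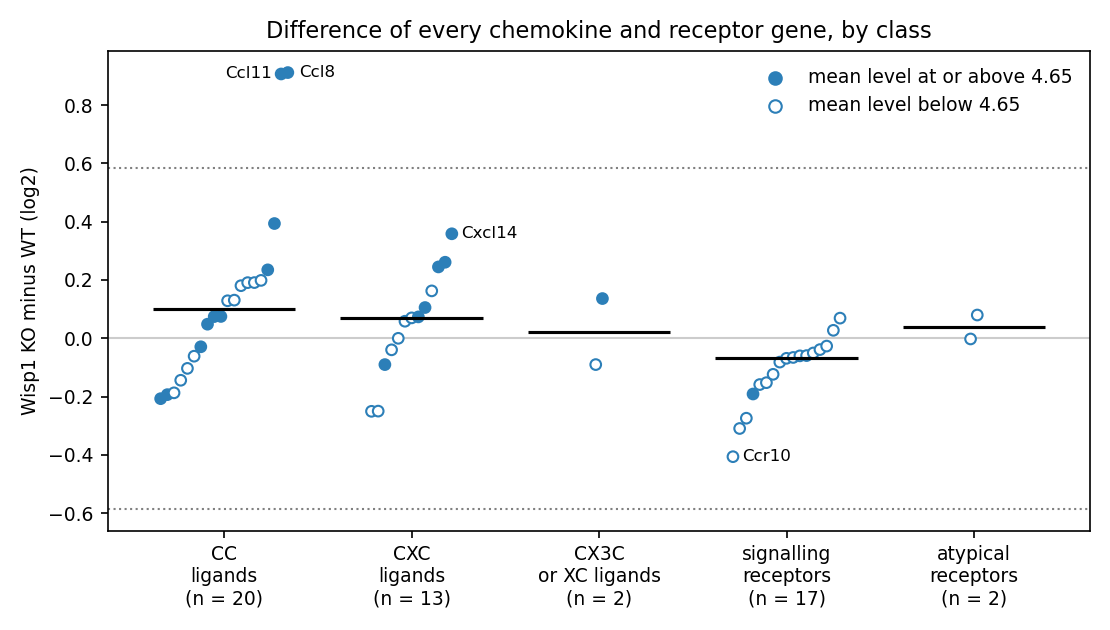
Difference (Wisp1 KO minus WT, log2, vertical axis) of all 54 members by class, with filled points for a mean level at or above 4.65, open points for dim genes, black bars for class medians and dotted lines at 1.5-fold. CC ligands have a median of 0.10 and signalling receptors a median of -0.07, and all receptor points but 1 are open.

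The receptor genes were nearly all dim. Of 19 receptor genes only Ccr7, the lymph node homing receptor, was at or above the median level, with a value of 4.73 in Wisp1 KO and 4.92 in WT (-0.19). The receptors of the ligands that differed most, Ccr8 for Ccl8 (2.94 in Wisp1 KO and 2.88 in WT) and Ccr3 for Ccl11 (2.37 in Wisp1 KO and 2.35 in WT), were both dim and differed by 0.07 and 0.03. Ccr2, the receptor of Ccl2 and Ccl7, had a value of 2.61 in Wisp1 KO and 2.69 in WT. The Cxcl12 receptor gene Cxcr4 had a value of 3.92 in Wisp1 KO and 4.07 in WT (-0.15). The largest receptor differences were in the dim genes Ccr10 (3.93 in Wisp1 KO and 4.33 in WT, -0.41), Cxcr6 (3.14 in Wisp1 KO and 3.45 in WT, -0.31) and Xcr1 (-0.27).

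In direction, 16 of 19 receptor genes were lower in Wisp1 KO and 3 higher. As deposited, 54.8% of the 15072 dim named genes were also lower, with a median difference of -0.03. The 17 signalling receptors had a median of -0.07, which was -0.03 after quantile normalization and -0.03 after loess centring. Under each of these scalings 15 of 19 receptor genes were lower, as were 49.6% of dim named genes. RMA compresses differences of dim genes, so a low value bounds a receptor's level poorly. The atypical receptors Ackr1, a chemokine sink of red cells and venules, and Ackr4, which scavenges Ccl19, Ccl21 and Ccl25, were dim, with differences of -0.0022 and 0.08. Ackr2 and Ackr3 had rows that also listed an older symbol and lay outside the member rule. Ackr3, the scavenger of Cxcl12, had a value of 6.43 in Wisp1 KO and 6.29 in WT (0.14), and Ackr2, which scavenges inflammatory CC chemokines, 5.30 in Wisp1 KO and 5.15 in WT (0.15).

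Many chemokine genes arose by duplication and lie side by side. By RefSeq gene order, 31 of the 54 members lay in 10 groups with no other protein-coding gene between them. The group of the monocyte chemoattractants and eotaxin on chromosome 11 held, in order, Ccl2, Ccl7, Ccl11, Ccl12, Ccl8 and Ccl1. Ccl11 and Ccl8 in this group differed by 0.91 each, while Ccl12 between them was dim and differed by 0.13, and Ccl2 and Ccl7 at its edge differed by -0.19 and 0.07. The second group on that chromosome, Ccl5, Ccl9, Ccl6, Ccl3 and Ccl4, had differences of 0.39, 0.23, 0.13, 0.20 and -0.06, in gene order. On chromosome 5, Cxcl3, Cxcl15, Cxcl1 and Cxcl2 differed by 0.07, -0.25, 0.24 and 0.07. Neighbours thus did not share 1 size of difference, and the large values in the monocyte chemoattractant group belonged to 2 of its 6 genes. Ccl12 and Ccl1 in that group were dim, where RMA compresses differences.

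**Figure D4:**
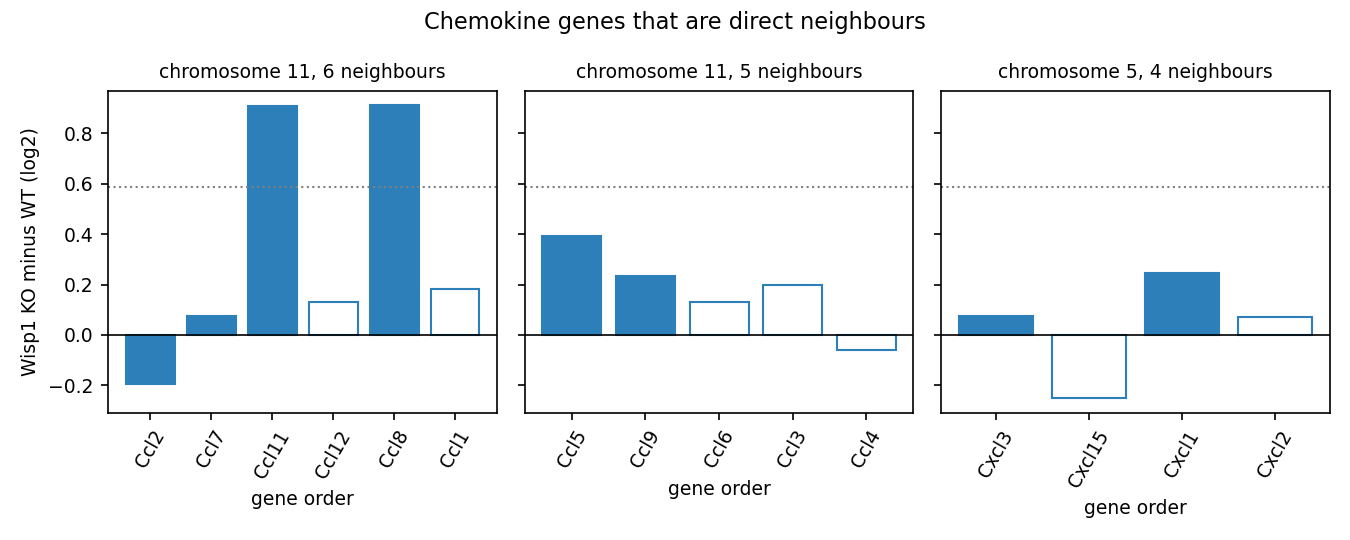
Difference (Wisp1 KO minus WT, log2, vertical axis) of members that are direct neighbours, in gene order, for the 3 groups of at least 4 genes. Filled bars are genes with a mean level at or above 4.65, open bars are dim genes and the dotted line marks 1.5-fold. Ccl11 and Ccl8 pass it, at 0.91 each, and the genes beside them stay between -0.19 and 0.18.

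Receptors and transcription factors that control chemokine genes were next set beside the members. Of 23 measured genes of this list 17 were higher and 6 lower in Wisp1 KO, with a median of 0.05. All named genes that are not dim had a median of 0.03. After quantile normalization the list median was 0.010 and that of those named genes -0.005. After loess centring these medians were 0.012 and 0.0007. No gene of the list reached 1.5-fold, and 4 were higher by at least 0.32 on the log2 scale. Of the named genes that are not dim 56.9% were higher and 3.89% were higher by that size. Il4ra, the shared chain of the receptors for interleukin-4 and interleukin-13, which are known to induce Ccl11 in fibroblasts, had a value of 10.37 in Wisp1 KO and 9.84 in WT (0.53). Il13ra1, its partner chain, had a value of 6.98 in Wisp1 KO and 6.47 in WT (0.50). Both chains were higher together with Ccl11 and Ccl8, while the downstream factor Stat6 differed by -0.02. Their part in the chemokine values was not tested.

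The others of these 4 were Il6st, the shared chain for interleukin-6 family cytokines (10.95 in Wisp1 KO and 10.49 in WT), and Il17ra, which receives interleukin-17 (7.92 in Wisp1 KO and 7.51 in WT). The interleukin-1 receptor gene Il1r1 stood just short of that size (10.22 in Wisp1 KO and 9.90 in WT). The interferon-gamma receptor gene Ifngr2 was the lowest member of the list, with a value of 8.84 in Wisp1 KO and 9.07 in WT (-0.23). Tlr4, the endotoxin receptor, differed by -0.22. Genes of the NF-kappaB pathway, which drives Cxcl1 and its neighbours, had a median of 0.04 over 18, with 10 higher and 6 lower. Among named genes that are not dim, 3.89% were higher by at least 0.32 and 2.64% lower. In this list only Bcl3, a nuclear cofactor of NF-kappaB, passed 0.32 (7.67 in Wisp1 KO and 7.21 in WT, 0.46). The next was the adaptor gene Traf6 at 0.18, and the inhibitor gene Nfkbia, an NF-kappaB target itself, differed by -0.08.

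Downstream of the receptors, genes of chemokine receptor signalling had a median of -0.02 over 27, with 7 higher, 16 lower and 4 the same. Over all named genes 47.0% were higher and 47.4% lower. No gene of this list reached 1.5-fold, a size at which 0.401% of all named genes were higher and 0.352% lower. Rgs16, which switches off G protein signals, had a value of 10.68 in Wisp1 KO and 11.08 in WT (-0.39). Grk5, a kinase that desensitizes receptors, had a value of 7.45 in Wisp1 KO and 7.79 in WT (-0.34). The inhibitory G protein gene Gnai1 differed by -0.31, while Gnai2 differed by 0.01.

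Proteases that cut chemokines had a median of 0.06 over 14, with 8 higher and 4 lower. Mmp3 (stromelysin), which trims monocyte chemoattractants, had a value of 7.39 in Wisp1 KO and 8.08 in WT (-0.68). It was the only gene of this list at or above the median level past 1.5-fold. Among named genes at that level 0.717% were at least 1.5-fold higher and 0.464% lower. Mmp12, the macrophage elastase, and Ctss, a lysosomal protease, were dim and differed by 0.65 and 0.63. Genes of heparan sulfate, the glycan that holds chemokines at the cell surface, had a median of 0.03 over 21, with 11 higher and 9 lower, and the sign of this median turned to -0.01 both after loess centring and after quantile normalization. Hs6st2, a sulfotransferase of this glycan, was lowest (6.42 in Wisp1 KO and 6.89 in WT, -0.47) and its relative Hs6st1 highest (0.25).

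**Figure D5:**
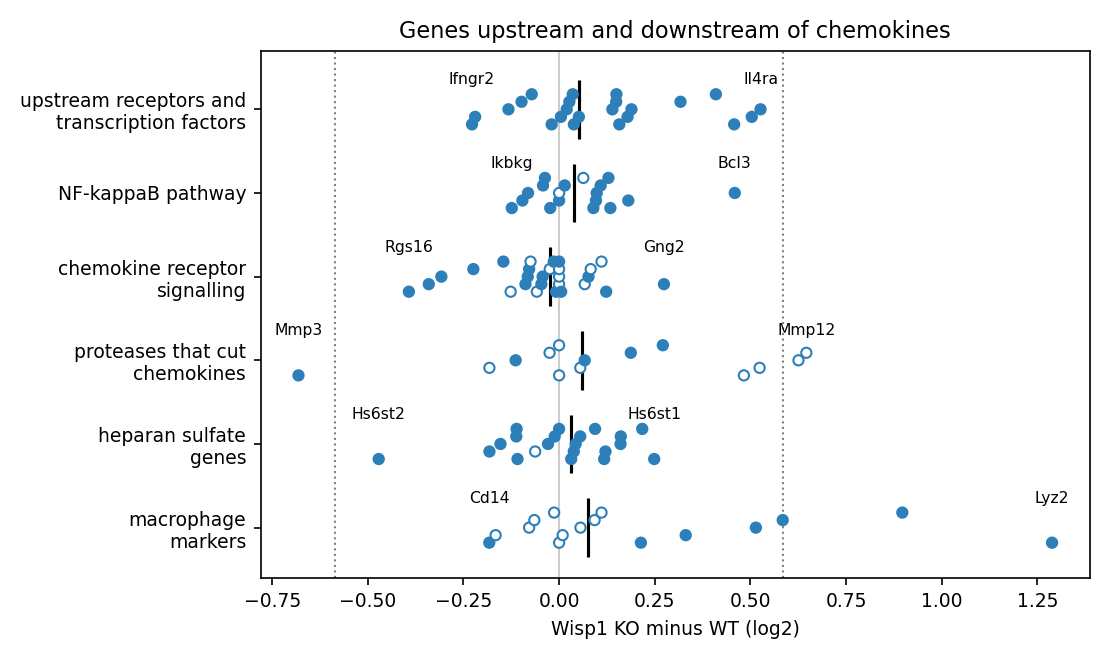
Difference (Wisp1 KO minus WT, log2, horizontal axis) of the genes of 5 pathway lists and of macrophage markers, with filled points for a mean level at or above 4.65, open points for dim genes, black bars for list medians, names at the lowest and highest gene and dotted lines at 1.5-fold. Il4ra leads the upstream list at 0.53, and Lyz2 the macrophage markers at 1.29.

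Of the genes outside the symbol rule only Mif passed 0.32, while 2.72% of all named genes were higher by that size and 3.06% lower. Pf4 had the same value of 4.89 on both arrays, Ppbp was dim (3.95 in Wisp1 KO and 3.87 in WT), and the chemokine-like cytokine gene Mif had 12.09 in Wisp1 KO and 11.68 in WT (0.41). The atypical chemokine receptor-like gene Ccrl2 was dim and differed by 0.08, and the list had a median of 0.04 over 6 genes.

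Leukocytes make and receive many of these chemokines, and several macrophage markers were higher together with Ccl8 and Ccl11. Of 16 macrophage markers 10 were higher and 5 lower in Wisp1 KO, with a median of 0.07. Over all named genes 47.0% were higher and 47.4% lower. At least 1.5-fold higher were 2 of the 16 markers and 0.401% of all named genes. The marker values summed on the linear scale came to 578 in Wisp1 KO and 399 in WT. That sum weights genes by the brightness of their probes, and Lyz2 alone gave 172 of it in Wisp1 KO and 70.6 in WT. Lyz2 (lysozyme) had a value of 7.43 in Wisp1 KO and 6.14 in WT (1.29), and Fcer1g, an Fc receptor chain, 6.02 in Wisp1 KO and 5.13 in WT (0.90). Further markers that were not dim were Cd68 (0.58), Tyrobp (0.51), C1qb (0.33) and C1qc (0.21), all higher in Wisp1 KO, and Cd14 (-0.18), lower. C1qa, listed with C1qb and C1qc, was dim and had 4.61 in Wisp1 KO and 4.62 in WT (-0.01). The dim markers Fcgr1 (-0.17) and Cd163 (-0.06) were lower, and Mrc1 (0.11), Itgam (0.09) and Timd4 (0.06) higher. The identity markers Adgre1, Csf1r and Ptprc were dim: Adgre1 had a value of 3.25 in Wisp1 KO and 3.33 in WT, Csf1r 4.62 in Wisp1 KO and 4.61 in WT, and Ptprc 2.86 on both arrays. The part of macrophages in the chemokine values was not tested. All markers of T and NK cells (7), B cells (4), neutrophils (6) and eosinophils and mast cells (8) that were matched were dim, with list medians from -0.12 to 0.02. The largest differences in these lists were in Cd3e (0.15) and Cd4 (-0.14), Cd79a (0.28) and Ms4a1 (-0.25), Ly6g (0.18) and Csf3r (-0.12), and Siglecf (-0.14) and Epx (-0.08). Dendritic cell markers had a median of 0.01 over 8, and H2-Ab1 was the only one that was not dim (0.30). Stromal markers were higher for 9 of 10 genes with a median of 0.21, led by Lum (0.60) and Col1a2 (0.52). Among named genes that are not dim 56.9% were higher as deposited, with a median of 0.03, and 0.717% were at least 1.5-fold higher. Marker lists were not rescaled. The part of stromal cells was likewise not tested.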

How the data were processed

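RNA of cultured stromal cells was measured on 1 array per genotype. The values deposited by the authors are log2 expression per transcript cluster from RMA, run in Partek per the submitters' processing notes. Versions, the array build and the arrays normalized together are not given in the sources used here. That they are log2 was inferred from their range, 1.74 to 13.65 in Wisp1 KO and 1.88 to 13.62 in WT.

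Of 65956 transcript clusters 30604 listed 1 symbol, 2146 several and 33206 none in the platform annotation. The row with the highest mean was kept per gene (352 genes had several rows, none of them a member). Differences were computed with no further normalization, no test was possible, and having 2 arrays sets the precision. The members and the 15 gene lists (179 of 193 entries matched, older symbols through Entrez IDs and RefSeq, GRCm38.p6) were chosen with earlier results of these data known. Every member could be named. Of other lists, genes past 1.5-fold at or above the median level and the 2 largest differences were named. Other list genes, such as Stat6, Il6st, Il1r1, Ifngr2, Nfkbia, Gnai1, Ctss, Pf4 and Adgre1, were chosen after their values were seen. 1 planned motif is not reported here. Counts and centring were tested on simulated data. Loess fits used statsmodels 0.14.6, figures matplotlib 3.10.9, and all other steps pandas 2.3.3 and numpy 2.4.6 under Python 3.11.15.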

Additional observations from a re-analysis of the deposited data

How the results depend on the processing

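With 1 array per genotype, no replicate could be left out, and having 2 arrays sets the precision. No paired analysis was possible either, because each genotype had only 1 array. The alternatives were quantile normalization, centring by loess (span 0.3) or on the median, the mean over rows of a gene, several-symbol rows kept, updated symbols, other filters on level, other folds and the mean of a list. Of 341 values under these settings 324 stayed within 1.5 times for a count, 0.05 for a median or 0.1 for a gene. The other 17 moved further, and median centring could move none because the median difference of named genes was 0. A change of sign was counted only for Ccl8 and Ccl11, the members past 1.5-fold, and 0 were found. The 18 members at or above the median level kept the sign of their difference in all 108 values. Median centring, the mean over rows and updated symbols left all 18 differences as they were. Keeping several-symbol rows changed only those of Ccl19 and Ccl27a. For the other members only quantile normalization and loess centring could change a sign. The number of members at least 1.5-fold higher was 2, which became 0 at 2-fold and 4 at a difference of 0.32. The median over all members became 0.043 with several-symbol rows kept, and that of the 18 brighter members, 0.09, became -0.0144 when dim members were counted too and 0.17 when a mean was taken. The median of the atypical receptors became 0.11 with several-symbol rows kept and 0.11 with updated symbols, where Ackr2 and Ackr3 joined by construction. Ccl19 differed by -0.19 when several-symbol rows were kept, since a brighter row then replaced its own.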

Other observations

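Among endothelial markers, a list that includes the chemokine sink Ackr1, Cdh5 (VE-cadherin) had a value of 4.62 in Wisp1 KO and 3.81 in WT, and Emcn (endomucin) 4.04 in Wisp1 KO and 3.24 in WT. Both were dim on the mean of the arrays and differed by 0.80. Only 13 of the 15072 dim named genes were at least 1.5-fold higher, Cdh5 and Emcn among them. Pecam1 (0.08), Kdr (0.07) and Ackr1 (-0.0022) differed little, and Tek, at or above the median level, differed by -0.14. Among adipocyte markers, 2 were higher and 3 lower in Wisp1 KO, and all but Plin1 (0.04) were dim. The hormone genes Retn (3.81 in Wisp1 KO and 4.90 in WT, -1.08) and Adipoq (3.86 in Wisp1 KO and 4.50 in WT, -0.64) were lower. Retn was past 2-fold and Adipoq past 1.5-fold. Of the 15072 dim named genes 36 were at least 1.5-fold lower and 2 at least 2-fold lower. Cidec differed by -0.13 and Lep by 0.05.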
